A study of Homo sapiens with 6 samples.

Results

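The 37 genes described here are NRF2 (NFE2L2), its sensor KEAP1, established NRF2 target genes and further antioxidant enzymes. They were taken by gene symbol from a list proposed with earlier results of these data known. Comparisons of the set with all genes are therefore descriptions. All 37 are among the 59074 genes of the deposited expression table. RNA was sequenced from 3 glioblastoma cell lines (U251, T98G, LN-229) at 72 h after transient transfection with a siPOOL, a mixture of siRNAs. The cells received either a non-target siPOOL (siControl) or a siPOOL against the long non-coding RNA HOTAIRM1 (siHOTAIRM1), both with Lipofectamine RNAiMAX. There was 1 library per cell line and condition, 6 libraries in all, with a depth of 52.3 to 104 M reads as estimated from the smallest steps between the values. Values are in CPM (reads of a gene scaled to library depth), and a level of 3 reads was 0.0289 to 0.0574 CPM. Within a cell line there is no replicate library, so differences within a line are given without a test. Their intervals cover counting error only, and the variation between repeat transfections or libraries was not measured. P-values over the cell lines measure the spread among these 3 lines.

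NRF2 is a transcription factor that KEAP1 holds in the cytoplasm and delivers to degradation by the proteasome. When oxidants or electrophiles modify cysteines of KEAP1, NRF2 is no longer degraded, enters the nucleus, pairs with small MAF proteins and binds antioxidant response elements in the genes of detoxifying and reducing enzymes. Its targets make and recycle glutathione and thioredoxin, supply NADPH, store iron and reduce carbonyls and quinones, and in glioma cells this set of enzymes is studied for its part in tolerance of radiation and alkylating drugs.

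HOTAIRM1 was lower in the siHOTAIRM1 library of each line. It was at 1.99 CPM in LN-229 siControl and 0.952 in LN-229 siHOTAIRM1, at 3.49 and 2.14 CPM in T98G, and at 1.27 and 0.622 CPM in U251. On the log2(CPM + 1) scale, which understates changes of low genes, the mean change was -0.54 ± 0.12 (SE, limma with the cell line as block, adjusted p = 0.0146), lower in 3 of 3 lines. HOTAIRM1 also passed with a pseudocount of 0.1, without the mean-variance trend and without U251. It did not pass after median centring (-0.47, adjusted p = 0.171), after rescaling (-0.56, adjusted p = 0.204), without T98G (-0.55, adjusted p = 0.435), without LN-229 (-0.50, adjusted p = 0.0711) or with the length trend removed (-0.40, adjusted p = 0.0514). Nor did it pass without the filter (adjusted p = 0.677), with the paired t-statistic (adjusted p = 0.637) or without the cell line as block.

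The labelled cell type was compared with 8 markers of glioma and neural lineage. Their summed level was 1363 CPM in LN-229 siControl, 1196 CPM in T98G siControl and 3110 CPM in U251 siControl, led by VIM in LN-229 and U251 and by CD44 in T98G. S100B was at 0 in both T98G libraries, and SOX2 was at or below 3 reads there, as was GFAP in T98G siControl. SOX9 in LN-229 and OLIG2 in U251 were at or below 3 reads in both libraries, so no line held the full set. The 12 markers of other cell types used here summed to 23.3 CPM in LN-229 siControl, 12.7 CPM in T98G siControl and 30.2 CPM in U251 siControl. After knock-down the sums were 16.2, 6.93 and 16.4 CPM. These sums do not cover every planned marker, since 1 was not used here. The most abundant of the 12 were SYT1 in LN-229 (18.6 CPM, siControl) and U251 (20.9 CPM) and CD68 in T98G (7.80 CPM). CD3E, RBFOX3 and AIF1 were at or below 3 reads in all 6 libraries, and PTPRC, EPCAM, PECAM1, CDH5 and ALB in some of them. SYT1 and CD68 passed the threshold as lower after knock-down, and the part of these markers in the results was not tested.

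The promoters were searched because NRF2 acts through a known sequence. RefSeq (GRCh38.p14) held 42 promoter windows, from 250 bases before to 50 bases after the start site, for 29 of the 37 genes. Both strands were searched for the core letters of the antioxidant response element, TGACNNNGC. These letters were present in a window of 7 of the 29 genes (24.1%) and of 16.1% of all 27305 genes with a window, or 13.3% of 35116 windows. The 7 were KEAP1, GCLM, TXNRD1, PGD, ME1, EPHX1 and GSTP1. Sequence outside these windows was not searched, so genes without a match here, such as NQO1 and GCLC, are not shown to lack the element. The match of GCLM, the modifier subunit of glutamate-cysteine ligase, lay 34 to 26 bases before the start site, and that of GSTP1, a glutathione transferase, 66 to 58 bases before it. The match in GSTP1 and 1 of the 2 in ME1, the one printed below, overlap an AP-1 motif (TGACTCA), which lies within the element in 0.561% of all windows. FTH1, SOD1, PRDX1, PRDX6, HMOX1, ABCC1, AKR1B10 and GSR had no entry. Below are 29-base stretches around the matches that lie before the start site and outside annotated exons, written 5′ to 3′ with the 9 matching bases in capitals. A match is a description of the letters and not a binding site.

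TXNRD1 (GRCh38.p14, chr12:104215670-104215698, plus strand, upstream of the annotated gene, 99 to 91 bases before the start): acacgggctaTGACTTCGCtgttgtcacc
PGD (GRCh38.p14, chr1:10398853-10398881, minus strand, in an intron of 1 longer annotated transcript, 201 to 193 bases before the start): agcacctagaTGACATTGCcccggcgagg
ME1 (GRCh38.p14, chr6:83431170-83431198, minus strand, upstream of the annotated gene, 137 to 129 bases before the start): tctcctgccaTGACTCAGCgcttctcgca
EPHX1 (GRCh38.p14, chr1:225825266-225825294, plus strand, in an intron of 3 longer annotated transcripts, 78 to 70 bases before the start): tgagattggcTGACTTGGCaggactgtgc

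The first comparison asks how the set differs between the cell lines. The lines were ordered differently for different genes. Both T98G libraries lay above the other 4 libraries for 18 of the 37 genes (17.2% of all genes tested showed this), and both LN-229 libraries lay below the other 4 for 22 (21.4% of all genes tested). Both U251 libraries lay above the other 4 for 9 (32.7% of all genes). Testing required an average level of 1 CPM or more, which all 37 genes reached and 14294 genes in all.

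In limma, with condition as an additive term, 26 of 37 genes were higher in T98G than in LN-229, where 24.1% of all genes tested were higher, and 5 were lower, where 30.8% were lower. Against U251, 19 were higher in T98G (23.1% of all genes) and 10 lower (41% of all genes). U251 was higher than LN-229 for 25 genes (36.7% of all genes) and lower for 4 (23.9% of all genes). The median difference of the set was 1.36 (log2) for T98G minus LN-229, 0.67 for T98G minus U251 and 0.72 for U251 minus LN-229, against -0.08, -0.22 and 0.15 over all genes. The spread in these tests is that between the 2 transfections of a line once the mean change with condition is removed, since no condition of a line has a second library. Of all called genes, 43.9%, 36.0% and 60.5% were the higher ones in the 3 comparisons, and the last 2 shares were 59.2% and 38.1% when the libraries were rescaled to the sum of their listed genes. With that rescaling, 27 of the 37 were higher and 5 lower in T98G than in LN-229 (25.9% and 28.9% of all genes). T98G was higher than U251 for 21 and lower for 8 (36.0% and 24.8% of all genes), and U251 was higher than LN-229 for 18 and lower for 7 (22.5% and 36.6% of all genes). The median differences of the set were then 1.41, 1.07 and 0.37, against -0.05, 0.12 and -0.17 over all genes. The calls that rescaling removed were those of PRDX5 and GSTM3 for T98G against U251, and of KEAP1, GCLC, GSR, TXNRD1, AKR1C1, OSGIN1 and ABCC1 for U251 against LN-229. It added TKT for T98G against LN-229, GCLM and TXN (higher in T98G) against U251, and PRDX5, PRDX6 and TALDO1 (lower in U251) against LN-229.

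**Figure D1:**
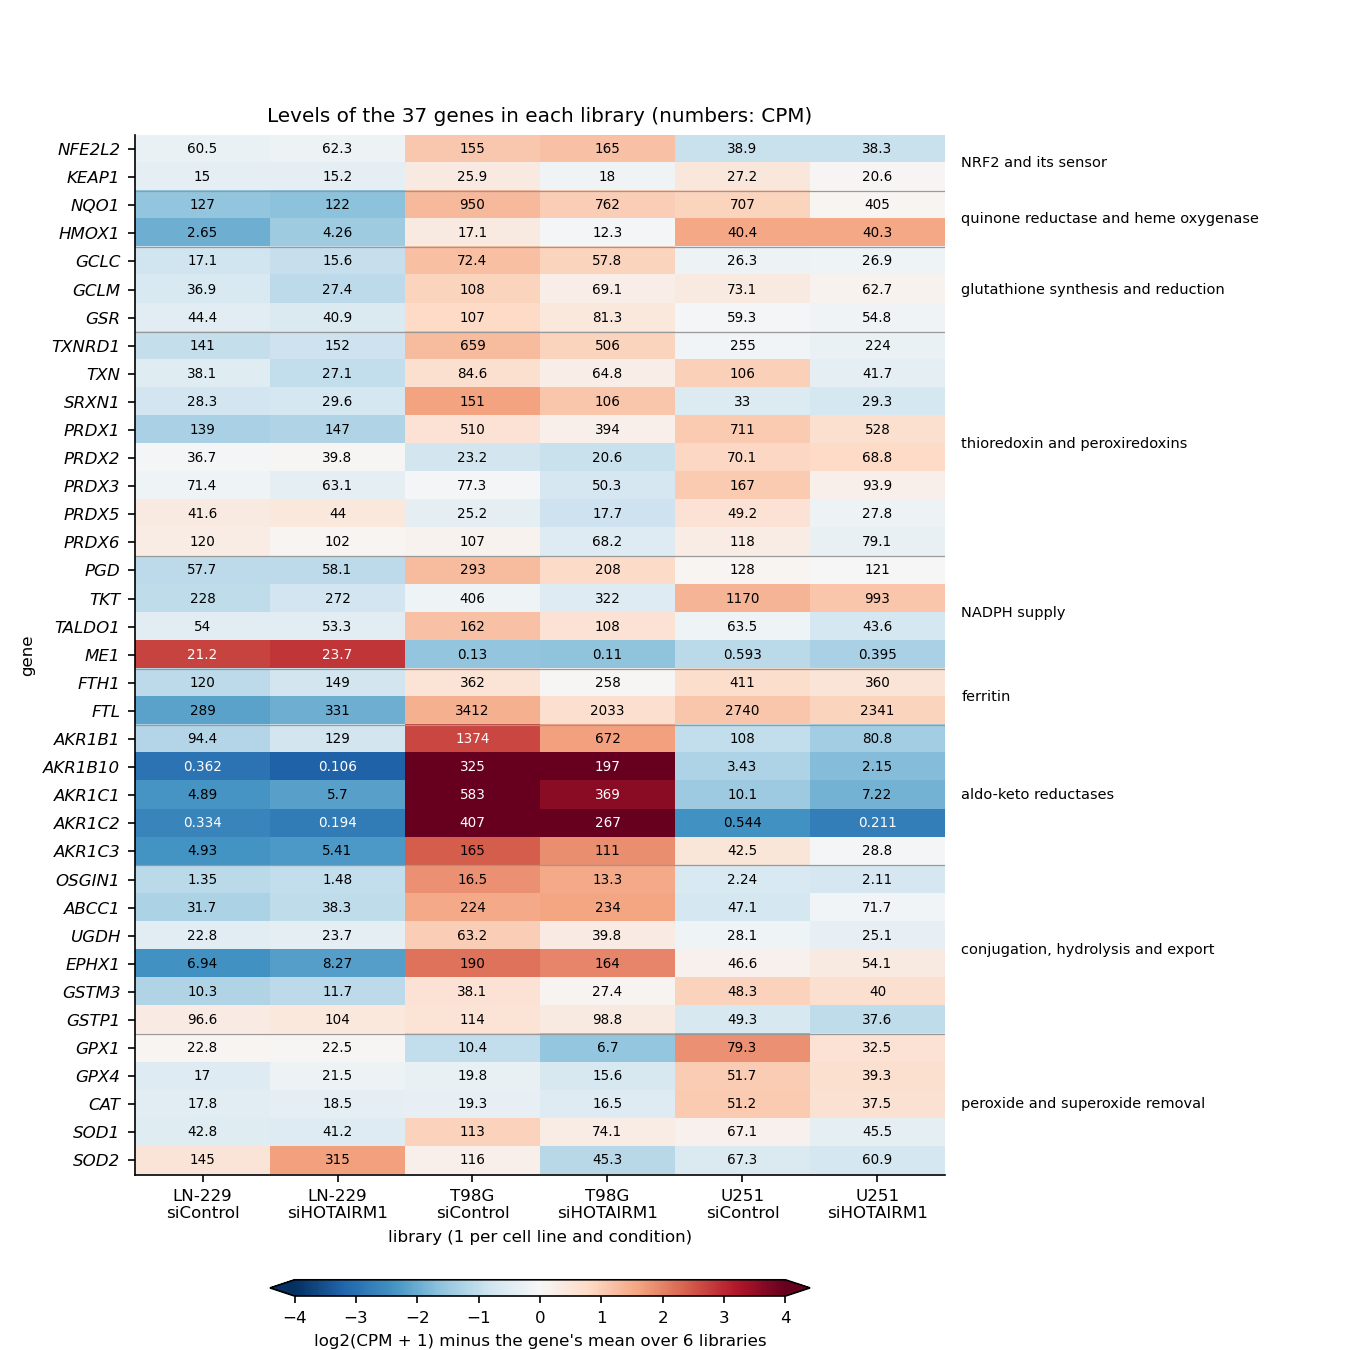
Levels of the 37 genes (by role) in the 6 libraries; the numbers are CPM and the colour is log2(CPM + 1) minus the gene's own mean over the libraries. The aldo-keto reductases are highest in the T98G columns, AKR1C2 at 407 and 267 CPM, and ME1 in the LN-229 columns.

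NFE2L2 (chr2:177218667-177392756, minus strand, hg38) encodes NRF2. It was at 60.5 CPM in LN-229 siControl and 62.3 in LN-229 siHOTAIRM1, at 155 and 165 CPM in T98G and at 38.9 and 38.3 CPM in U251. Its T98G libraries were above all others, by 1.36 ± 0.18 (log2, SE) against LN-229 and 2.02 ± 0.18 against U251 (limma adjusted p = 4.2e-08 and 4.3e-12). KEAP1, on chromosome 19, was at 15.0 and 15.2 CPM in LN-229, 25.9 and 18.0 in T98G and 27.2 and 20.6 in U251. KEAP1 thus varied far less between the lines than NFE2L2, and its T98G and U251 values overlapped.

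NQO1, the quinone reductase that is a classical readout of NRF2, was at 127 and 122 CPM in LN-229, 950 and 762 CPM in T98G and 707 and 405 CPM in U251 (siControl first). Its 2 T98G libraries were the highest and the LN-229 libraries the lowest, and T98G exceeded LN-229 by 2.77 (limma adjusted p = 1.1e-12). HMOX1, heme oxygenase, had another order, at 2.65 and 4.26 CPM in LN-229, 17.1 and 12.3 in T98G and 40.4 and 40.3 in U251. U251 was the highest line for HMOX1, above T98G by 1.42 on the log2 scale (T98G minus U251 -1.42, limma adjusted p = 8.1e-08).

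The 3 genes of glutathione synthesis and reduction were all higher in T98G than in LN-229 (24.1% of all genes). As deposited all 3 were also higher in U251 than in LN-229 (36.7% of all genes). After rescaling only GCLM was higher in U251 (GSR 0.41 as deposited and 0.059 rescaled). GCLC, the catalytic subunit of glutamate-cysteine ligase, was at 17.1 and 15.6 CPM in LN-229, 72.4 and 57.8 in T98G and 26.3 and 26.9 in U251. GCLM was at 36.9 and 27.4 CPM in LN-229, 108 and 69.1 in T98G and 73.1 and 62.7 in U251. T98G was above U251 past the threshold for GCLC (1.25) and for glutathione reductase, GSR (0.70, levels of 40.9 to 107 CPM), but for GCLM only after rescaling (0.35 as deposited, limma adjusted p = 0.0891), whose T98G and U251 values overlapped.

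Of the 8 genes of the thioredoxin and peroxiredoxin group, 4 were higher and 2 lower in T98G than in LN-229 (24.1% and 30.8% of all genes). TXNRD1, thioredoxin reductase, was at 141 and 152 CPM in LN-229, 659 and 506 in T98G and 255 and 224 in U251. SRXN1, sulfiredoxin, which reduces over-oxidised peroxiredoxins, was at 28.3 and 29.6 CPM in LN-229, 151 and 106 in T98G and 33.0 and 29.3 in U251. Both were highest in T98G, and the SRXN1 values of LN-229 and U251 overlapped. TXN and PRDX1, a cytosolic peroxiredoxin (139 to 711 CPM over the libraries), were higher in T98G and U251 than in LN-229, and as deposited neither differed past the threshold between T98G and U251. The mitochondrial peroxiredoxins showed no such order, with PRDX3 at 50.3 to 167 CPM and PRDX5 at 17.7 to 49.2 CPM over the libraries and both lower in T98G than in U251 as deposited. PRDX2 was lowest in T98G (20.6 to 23.2 CPM), and PRDX6 at 68.2 to 120 CPM passed no threshold between lines as deposited.

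In the NADPH group, PGD and TALDO1 of the pentose phosphate pathway were highest in T98G (293 and 162 CPM, siControl) and TKT, transketolase, was highest in U251 (1170 and 993 CPM). ME1, malic enzyme, stood apart. It was at 21.2 and 23.7 CPM in LN-229, 0.130 and 0.110 CPM in T98G (95% Wilson interval of the first 0.0686 to 0.248) and 0.593 and 0.395 CPM in U251. ME1 was thus lowest in T98G, T98G minus LN-229 being -4.38 ± 0.16 (limma adjusted p = 6.6e-23).

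Of the ferritin genes, FTL, the light chain, had the highest level of the set per transcript length in siControl of every line. It was at 332 (LN-229), 3918 (T98G) and 3146 (U251) CPM per kb in siControl. Its 289, 3412 and 2740 CPM made T98G 11.8-fold and U251 9.49-fold higher than LN-229. In the siHOTAIRM1 libraries these were 6.14-fold and 7.07-fold, and U251 was the highest line. FTH1 was at 120 (LN-229), 362 (T98G) and 411 (U251) CPM in siControl, and reads of its 25 processed pseudogenes made 39.2 to 42.3% of the summed level, so its level is uncertain.

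The 5 aldo-keto reductases, which reduce aldehydes, ketones and lipid carbonyls, were all higher in T98G than in both other lines. Of all genes, 24.1% were higher in T98G than in LN-229 and 23.1% than in U251. AKR1C2 was at 0.334 and 0.194 CPM in LN-229, 407 and 267 CPM in T98G and 0.544 and 0.211 CPM in U251. AKR1B10 was at 0.362 and 0.106 CPM in LN-229, 325 and 197 in T98G and 3.43 and 2.15 in U251. AKR1C1 was at 4.89 and 5.70 CPM in LN-229, 583 and 369 in T98G and 10.1 and 7.22 in U251. On the log2(CPM + 1) scale these 3 had the widest ranges between lines, whereas by the ratio of CPM that of ME1 was wider than that of AKR1C1. AKR1B1, aldose reductase, was at 94.4 and 129 CPM in LN-229, 1374 and 672 in T98G and 108 and 80.8 in U251, and its LN-229 and U251 values overlapped.

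AKR1C1, AKR1C2 and AKR1C3 lie side by side on chromosome 10, and AKR1B1 and AKR1B10 on chromosome 7. Members of a cluster are closely similar in sequence, and the splitting of shared reads among them is uncertain. Summed, which does not depend on that splitting among the 3, AKR1C1, AKR1C2 and AKR1C3 were at 10.2 CPM in LN-229, 1155 CPM in T98G and 53.1 CPM in U251 (siControl). The 5 genes together were 27.2-fold higher in T98G than in LN-229 and 17.3-fold higher than in U251, and after knock-down 11.5-fold and 13.6-fold.

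Of the 6 genes of conjugation, hydrolysis and export, 5 were higher in T98G than in LN-229 (24.1% of all genes). EPHX1, microsomal epoxide hydrolase, was at 6.94 and 8.27 CPM in LN-229, 190 and 164 in T98G and 46.6 and 54.1 in U251. ABCC1, a pump for glutathione conjugates, was at 31.7 and 38.3 CPM in LN-229, 224 and 234 in T98G and 47.1 and 71.7 in U251. Both were highest in T98G and lowest in LN-229. OSGIN1 ranged from 1.35 to 16.5 CPM, UGDH from 22.8 to 63.2 CPM and GSTM3 from 10.3 to 48.3 CPM, GSTM3 being highest in U251 siControl. GSTP1 was at 37.6 to 49.3 CPM in U251, below both other lines.

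Of the enzymes that remove peroxide and superoxide, only SOD1 had the order of NQO1 in its levels as deposited. GPX1, glutathione peroxidase, was at 22.8 and 22.5 CPM in LN-229, 10.4 and 6.70 in T98G and 79.3 and 32.5 in U251, lowest in T98G. GPX4 (15.6 to 51.7 CPM) and catalase, CAT (16.5 to 51.2 CPM), were higher in U251 than in both other lines. SOD1, the cytosolic dismutase, was at 41.2 to 113 CPM, highest in T98G and lowest in LN-229. Its difference of U251 from LN-229 did not pass the threshold, at 0.39 as deposited (limma adjusted p = 0.0654) and 0.036 rescaled. SOD2, its mitochondrial counterpart, was at 145 and 315 CPM in LN-229, 116 and 45.3 in T98G and 67.3 and 60.9 in U251.

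**Figure D2:**
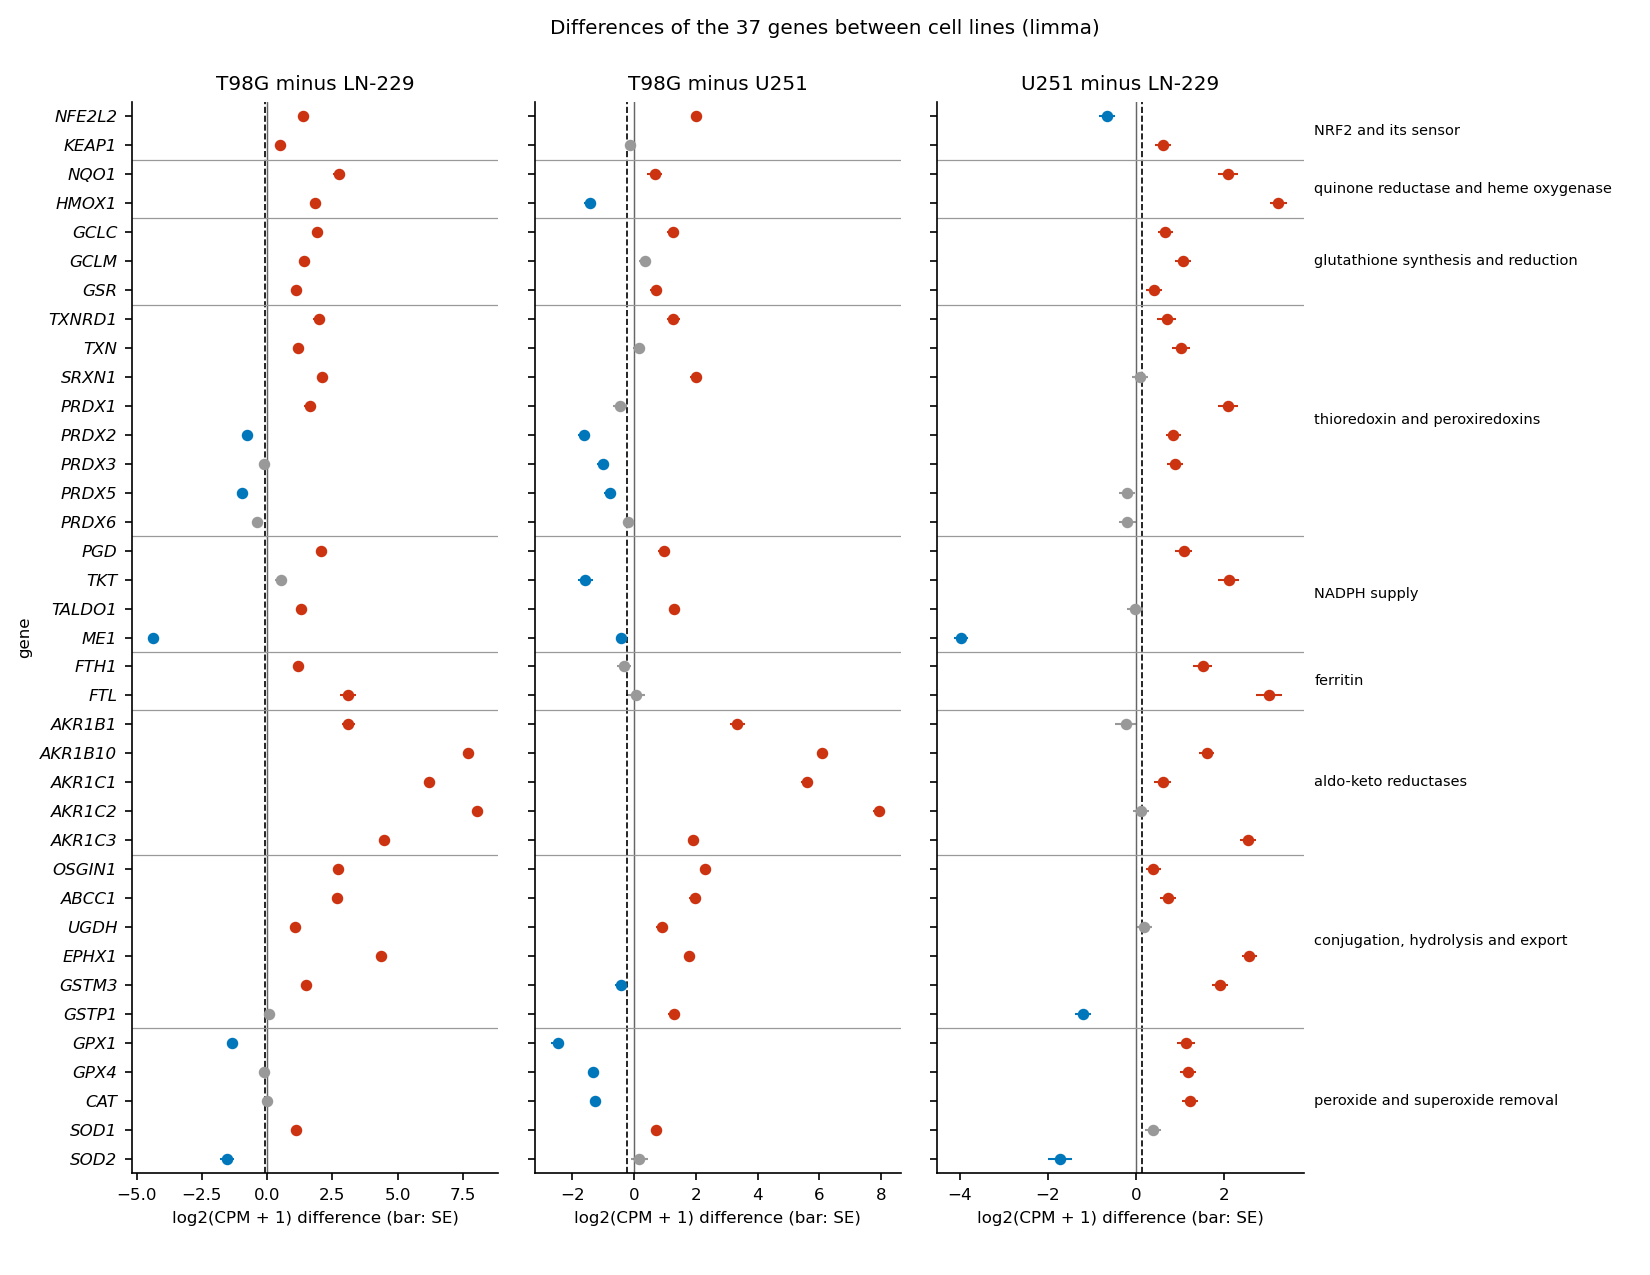
Differences of the 37 genes between cell lines on the log2(CPM + 1) scale with SE (limma, 6 libraries); red is higher and blue lower at an adjusted p under 0.05, grey is not past it, and dashed lines are medians over 14294 genes. The aldo-keto reductases reach 8.03 for T98G minus LN-229, and GPX1, GPX4 and CAT lie below 0 for T98G minus U251.

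A further 145 genes of 9 related lists were examined, of which 120 passed the filter. Of these, 47 (39.2%) were higher in T98G than in LN-229 and 28 (23.3%) lower, where 24.1% and 30.8% of all genes were. Against U251, 40 (33.3%) were higher in T98G and 45 (37.5%) lower on the scale as deposited (23.1% and 41% of all genes). U251 was higher than LN-229 for 57 (47.5%) and lower for 22 (18.3%), against 36.7% and 23.9% of all genes. The list of other reductases and transporters had the largest number of genes higher in T98G than in LN-229, 13 of 19.

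The second comparison asks what changed with knock-down of HOTAIRM1. Thioredoxin (TXN) and GPX1 were lower after knock-down and passed the threshold, so that 2 of 37 genes were lower (1.59% of all genes tested) and 0 higher (0.413% of all genes). At an unadjusted p under 0.05 limma gave 12 lower genes of the set (14.2% of all genes) and 1 higher gene, ABCC1 (4.19% of all genes). Over all genes, 286 passed the threshold, 59 higher and 227 lower. When libraries were rescaled to the sum of their listed genes, 25 passed, 10 higher and 15 lower, and none of the 37.

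TXN, which passes electrons from thioredoxin reductase to peroxiredoxins, was at 38.1 CPM in LN-229 siControl and 27.1 in LN-229 siHOTAIRM1, at 84.6 and 64.8 in T98G and at 106 and 41.7 in U251. It was lower in 3 of 3 lines, by -0.48, -0.38 and -1.32, with a mean of -0.72 ± 0.16 (SE, limma adjusted p = 0.0107). The changes of GPX1 from the levels above were -0.02, -0.56 and -1.26, so it was lower in 3 of 3 lines but hardly in LN-229, with a mean of -0.61 ± 0.16 (limma adjusted p = 0.0420). Neither passed after median centring (-0.66, adjusted p = 0.197 for TXN and -0.55, adjusted p = 0.235 for GPX1) or without T98G (-0.90 and -0.64), nor without U251, where the changes were smaller (-0.43 and -0.29). With each gene's own spread (paired t-statistic, adjusted p = 0.637 for both) or without the cell line as block neither passed, at the same mean changes. TXN and GPX1 share reads with 7 and 2 processed pseudogenes, which made up to 18.4% and 11.8% of the summed levels, and both passed when summed with them.

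Per line, the direction differed. The 37 genes had a median change of 0.08 in LN-229 (all genes 0.01), and 12 were lower, where 46.3% of all genes were. In T98G it was -0.48, and 35 of 37 were lower, where the median of all genes was itself -0.19 and 79.3% of them were lower. In U251 it was -0.27 (all genes -0.03), and 34 were lower, where 53.2% of all genes were. Relative to the median change of all genes in the same line, 33 of 37 in T98G and 31 in U251 lay below it, with medians of -0.29 and -0.24. Lower values in all 3 lines were found for 11 of the 37 (29.7%) and for 28.1% of all genes. In bulk RNA, fewer cells with a transcript and less of it per cell cannot be told apart.

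These counts depend on the scale in U251. The listed genes summed to 50.2% of the full CPM scale in T98G siControl and 42.9% in T98G siHOTAIRM1, and to 67.2% and 55.9% in U251. RN7SL1, the most abundant listed gene, took 6.06% of the scale in U251 siControl and 2.79% in U251 siHOTAIRM1. After rescaling to these sums, 31 of 37 genes were lower in T98G (50.4% of all genes) and 20 of 37 in U251 (30.9% of all genes), and all genes had a median of -0.0022 in T98G and 0.18 in U251. The median of the set relative to that of all genes was then -0.26 in T98G and -0.30 in U251.

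Among changes of 0.5 or more (log2), 0 of 37 were lower (0.993% of all genes) and 2 higher (1.47% of all genes) in LN-229. In T98G 16 were lower (8.26% of all genes) and 0 higher (0.644% of all genes). In U251 9 were lower (11.9% of all genes) and 1 higher (6.56% of all genes). Relative to the all-gene median, 4 were lower by 0.5 in T98G (1.85% of all genes) and 9 in U251 (10.7%). After rescaling, these were 3 in T98G (2.4%; FTL, AKR1B1 and SOD2), 5 in U251 (4.98%) and 2 in LN-229 (1.71%; TXN and AKR1B10). PRDX3, PRDX6, TALDO1, AKR1C3, GPX1 and SOD1 were lower by this size in both T98G and U251 on the scale as deposited only, and none of them reached it in T98G relative to the median or after rescaling. These 2 alternatives were chosen after the data were seen. All are differences between 2 libraries and were not tested.

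**Figure D3:**
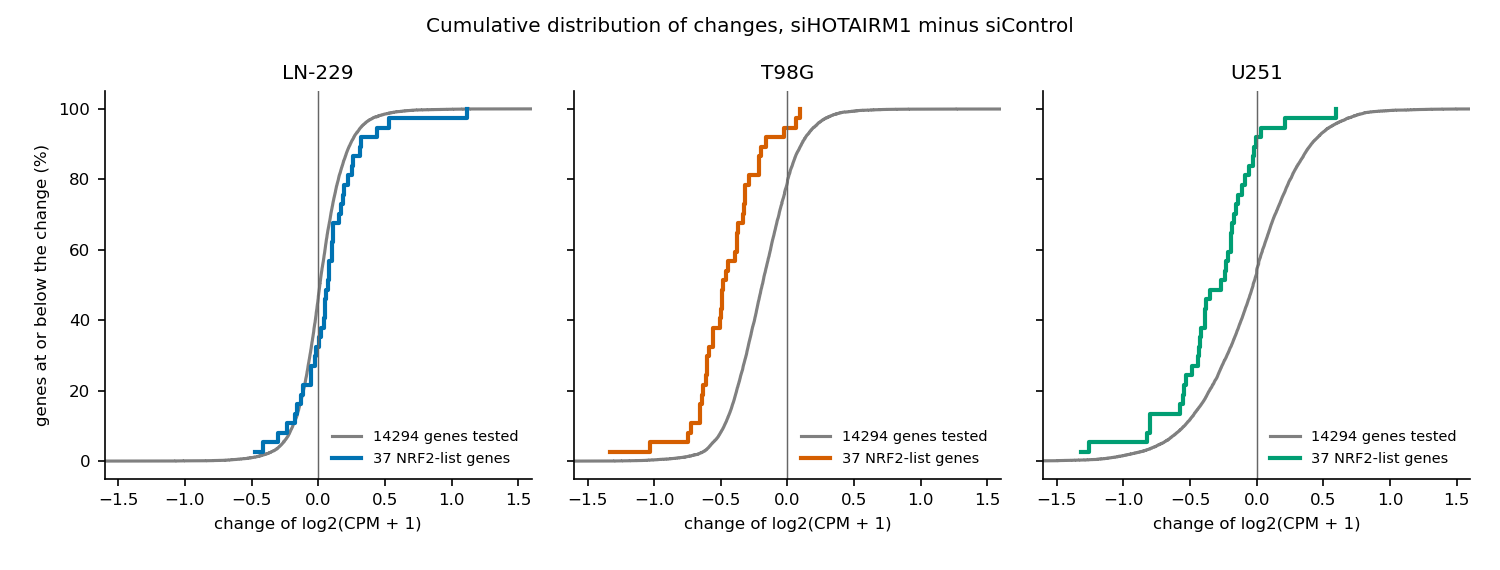
Cumulative share of genes (percent) at or below a change of log2(CPM + 1), siHOTAIRM1 minus siControl, for the 37 genes (colour) and all 14294 tested (grey) in each cell line. The coloured curve lies left of the grey one in T98G (medians -0.48 and -0.19) and U251 (-0.27 and -0.03), and close to it in LN-229.

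Of the regulators, NFE2L2 moved little. It changed by 0.04 (LN-229), 0.09 (T98G, the largest rise of the set there) and -0.02 (U251). KEAP1 changed by 0.02, -0.50 and -0.39. Neither passed the threshold (limma adjusted p = 0.925 and 0.282), and NFE2L2 was 0.28 above the median change of all genes in T98G.

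NQO1 changed by -0.06, -0.32 and -0.80 in LN-229, T98G and U251, and HMOX1 by 0.53, -0.45 and -0.01. The mean changes were -0.39 ± 0.19 and 0.02 ± 0.16, neither past the threshold. GCLM changed by -0.41, -0.63 and -0.22, lower in 3 of 3 lines, while GCLC changed by -0.13, -0.32 and 0.03.

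All 8 thioredoxin and peroxiredoxin genes had lower values in T98G and U251 as deposited, where 79.3% and 53.2% of all genes did. In each of these lines 7 of the 8 lay below the median change of all genes. Rescaled, 7 were lower in T98G and 5 in U251 (50.4% and 30.9% of all genes). PRDX3 changed by -0.18, -0.61 and -0.83 (mean -0.54 ± 0.15, limma adjusted p = 0.0582) and PRDX6 by -0.24, -0.64 and -0.57. TXNRD1 and SRXN1 changed by -0.38 and -0.50 in T98G and by 0.10 and 0.06 in LN-229. TXNIP, the inhibitor of thioredoxin, was higher in 3 of 3 lines, at 4.93 and 18.3 CPM in LN-229, 102 and 159 in T98G and 4.84 and 34.2 in U251.

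The aldo-keto reductases had lower values in T98G and in U251 for 5 of 5 genes, where 79.3% and 53.2% of all genes did. As deposited, lower values in both of these lines were found for 33 of the 37 genes and for 48.4% of all genes. Rescaled, 31 of the 37 were lower in T98G and 20 in U251 (50.4% and 30.9% of all genes). All 5 aldo-keto reductases were also lower in both lines with the all-gene median subtracted and after rescaling. AKR1B1 changed by 0.44, -1.03 and -0.42, AKR1B10 by -0.30, -0.72 and -0.49, AKR1C1 by 0.19, -0.66 and -0.44 and AKR1C2 by -0.16, -0.61 and -0.35. None passed the threshold as deposited, AKR1B10 being nearest (mean -0.50 ± 0.15, limma adjusted p = 0.0597). AKR1B10 passed when summed with its processed pseudogenes (-0.53, limma adjusted p = 0.0465) and with the length trend removed (-0.45, limma adjusted p = 0.0278). With a pseudocount of 0.1, AKR1B10 (-0.85, limma adjusted p = 0.000413) and AKR1C2 (-0.74, limma adjusted p = 0.00674) passed. Neither passed in the other alternatives. The low levels in LN-229 rest on few reads, with 95% Wilson intervals of 0.257 to 0.511 CPM for AKR1B10 in siControl and 0.0591 to 0.190 in siHOTAIRM1.

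ABCC1 was the only gene of the set with a higher value in all 3 lines (0.26, 0.06 and 0.60), a pattern of 11.4% of all genes, and did not pass the threshold (mean 0.31 ± 0.15, limma adjusted p = 0.271). EPHX1 changed by 0.22, -0.21 and 0.21. FTL changed by 0.20, -0.75 and -0.23, and the 4 NADPH genes by -0.02 to 0.25 in LN-229, -0.59 to -0.03 in T98G and -0.53 to -0.09 in U251.

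SOD2 had the largest rise of the set in LN-229 (1.12) and the largest fall in T98G (-1.33), with -0.14 in U251. Its mean of -0.12 ± 0.23 (limma adjusted p = 0.824) averages opposite changes. With 1 library per line and condition, the difference between the lines was not tested.

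**Figure D4:**
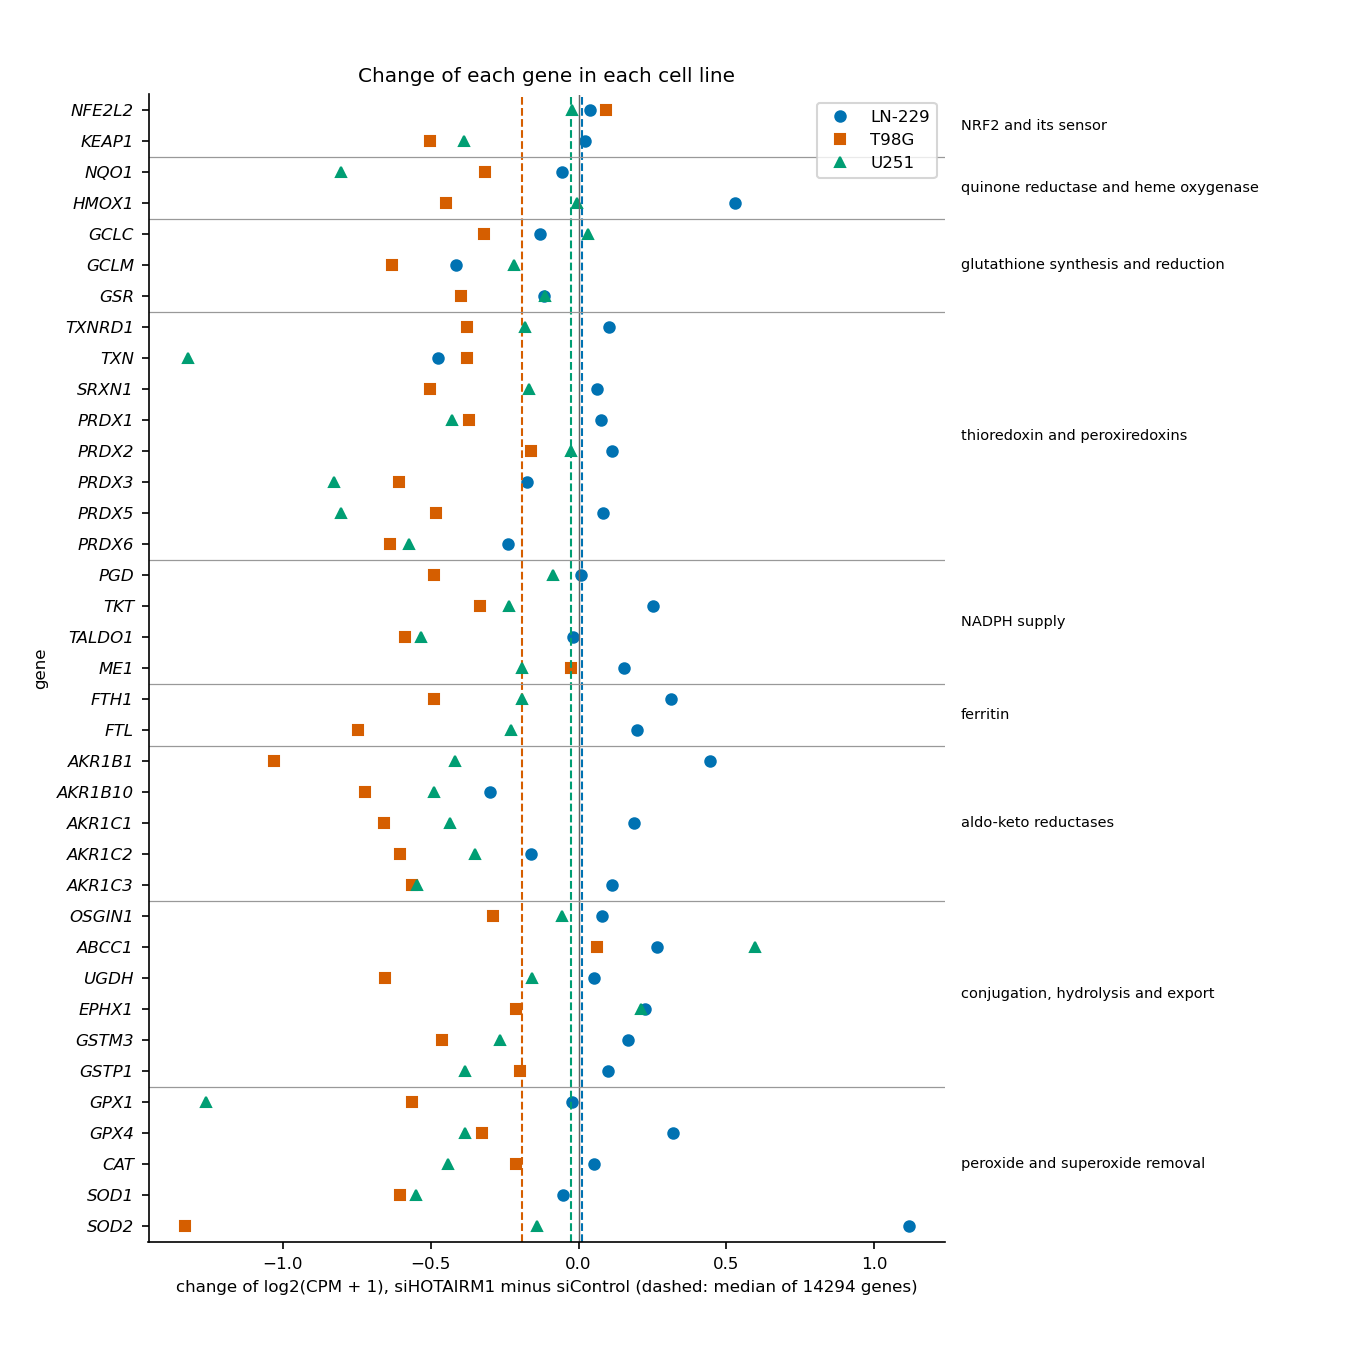
Change of log2(CPM + 1), siHOTAIRM1 minus siControl, of each of the 37 genes (by role) in each cell line; dashed lines are the medians of 14294 genes. Most T98G and U251 points lie left of 0 and LN-229 points near it, with SOD2 at 1.12 in LN-229 and -1.33 in T98G.

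The change also varied with transcript length. Over 12336 genes, the Spearman correlation of change and length, across genes that are not independent replicates, was -0.03 (LN-229), 0.24 (T98G) and 0.31 (U251). The 37 genes are short, with a median of 1922 bases against 3294 over all genes, from 737 (TXN) to 14167 (SOD2). With the trend removed in each line, an alternative chosen after the data were seen, the medians of the set were 0.05, -0.22 and -0.20, and 14, 30 and 27 of the 37 were lower, where 51%, 50.7% and 49.6% of all genes were.

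**Figure D5:**
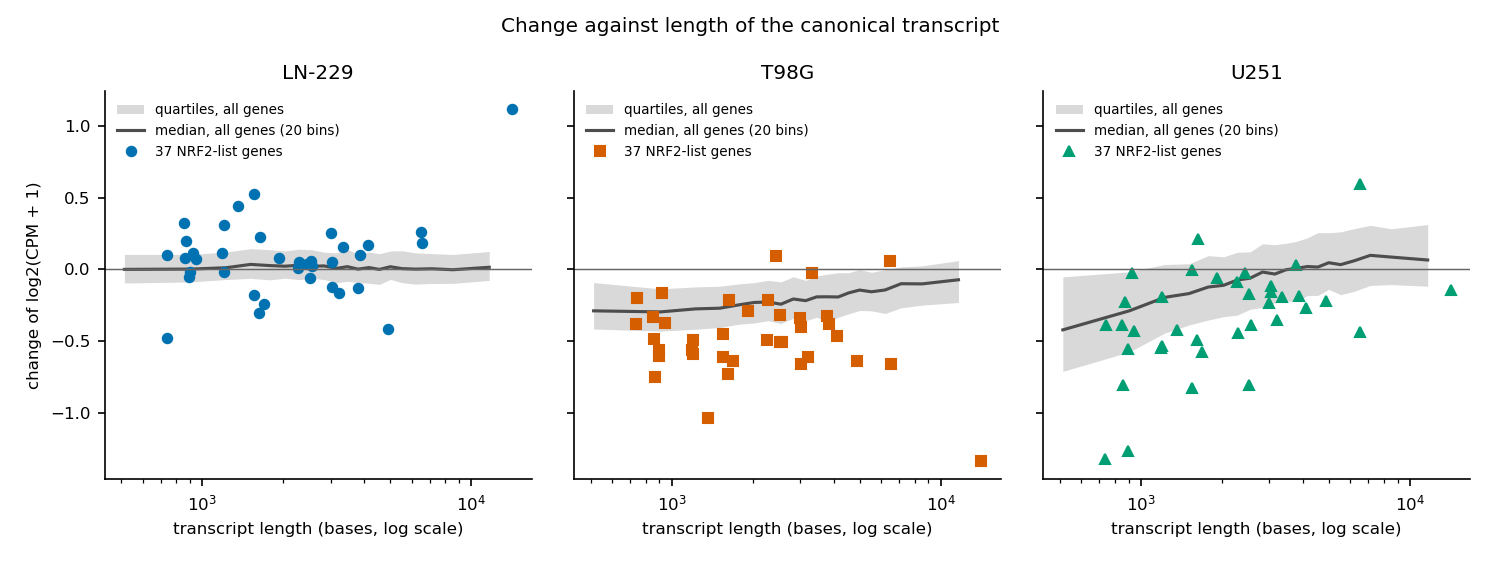
Change of log2(CPM + 1), siHOTAIRM1 minus siControl, against the length of the canonical transcript (bases, log scale) for the 37 genes (symbols), with the median (line) and quartiles (shading) of all genes in 20 length bins. In T98G and U251 the line rises with length, and with the length trend removed 30 and 27 of the 37 genes were lower.

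Of the 120 tested genes of related lists, 1 was higher and 4 lower in limma, where 0.413% and 1.59% of all genes were. TXNIP was the higher one (mean 1.64 ± 0.19). The lower ones were MTHFD2, a mitochondrial folate enzyme (-0.79 ± 0.14, adjusted p = 0.00154), MSRB3, a methionine sulfoxide reductase (-0.69 ± 0.14, adjusted p = 0.00716), ABCG2, an efflux pump (-0.61 ± 0.14, adjusted p = 0.0146), and GSTO1, a glutathione transferase (-0.60 ± 0.16, adjusted p = 0.0469). In the other 5 lists no gene passed in limma. Their largest mean changes were -0.52 for the KEAP1 partner SQSTM1, -0.50 for glutaredoxin (GLRX), -0.49 for NCOA4, the ferritin receptor of autophagy, -0.39 for OXR1 and -0.20 for TRNAU1AP. SQSTM1 was at 184 and 176 CPM in LN-229, 832 and 450 in T98G and 524 and 345 in U251.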

How the data were processed

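RNA of 6 libraries (3 cell lines, 2 conditions) was sequenced. The authors trimmed the reads, aligned them to hg38 with STAR 2.4.1d and Bowtie 2 2.2.5, and quantified Ensembl release 84 in Partek by expectation maximization, which splits shared reads. The authors deposited CPM with 0.0001 added to each. Below 50 reads, 87.0 to 88.5% of values were within 0.05 of a whole read, so no count test was used. Intervals are 95% Wilson intervals and cover counting error only. Differences were taken on log2(CPM + 1) and tested with limma 3.58.1 (R 4.3.3, mean-variance trend, cell line as block, Benjamini-Hochberg, threshold 0.05) over 14294 genes, after a test on simulated data. Libraries of the same line deviated together (r of 0.948 to 0.967), and the lines are the pairs. Lengths are from GENCODE 44, promoters from RefSeq, with Python 3.11.15, pandas 2.3.3 and matplotlib 3.10.9. The members and lists were chosen with earlier results of these data known. Named genes are HOTAIRM1, 8 core NRF2 genes, members past the threshold, the 2 largest rises and falls per line, the 3 widest ranges between lines, and listed pathway genes past the threshold or with their list's largest mean change, and others serve as examples. Alternatives were other pseudocounts, filters, scalings and fits, each line or library left out, pseudogene sums and removal of the length trend.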

Additional observations from a re-analysis of the deposited data

Results flagged for a closer look

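SOD2 was noted because its changes with knock-down went in opposite directions by 0.5 or more (log2) in 2 cell lines, both as deposited and relative to the median change of all genes. It changed by 1.12 in LN-229 and by -1.33 in T98G, a difference of 2.45, and by 1.11 and -1.14 relative to the median. Each change compares 2 libraries and the difference was not tested.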

How the results depend on the processing

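For the 37 genes against knock-down, the 2 genes past the threshold became 6 with a pseudocount of 0.1, 1 without the mean-variance trend and 5 with the length trend removed (chosen after the data were seen). AKR1B10 passed beside TXN and GPX1 when genes were summed with their processed pseudogenes. The count was 0 with no replicate block for the cell line, with the paired t-statistic, without the filter, after median centring and after rescaling, and 0 to 3 with each line left out (0 without T98G and 0 without U251). At an unadjusted p under 0.05 these fits held 0, 0, 7, 10 and 7 of the genes (0.203%, 6.27%, 6.88%, 18.1% and 15.4% of all genes), and 7 without T98G and 5 without U251 (8.44% and 7.58% of all genes). Over all genes, the 286 calls became 0 with no replicate block, 0 with the paired t-statistic, 683 with a pseudocount of 0.1, 0 without the filter, 14 after median centring, 25 after rescaling, 185 without the trend, 654 of the 12336 genes with a length when its trend was removed, and 0 to 270 with each line left out (0 without T98G, 149 without U251). The cause was not tested.

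The median change of the set in T98G moved to -0.29 relative to all genes, -0.26 after rescaling and -0.22 without the length trend. In U251 it moved to -0.39 with a pseudocount of 0.1 and -0.12 after rescaling, and in LN-229 to 0.030 after rescaling. The cause was not tested. Counts between cell lines stayed within 1.5 times of the reported ones, also with each library left out (a lone library is assumed to vary like the others), except U251 lower than LN-229, which was 7 after rescaling.

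Mean changes turned sign for GCLC after rescaling (0.0057) and SOD2 after rescaling (0.026), and with a line left out for HMOX1 (-0.23 without LN-229 to 0.26 without T98G), SOD2 (-0.74 without LN-229 to 0.49 without T98G), AKR1B1 (-0.73 without LN-229 to 0.012 without T98G) and EPHX1 (-0.0018 without LN-229 to 0.22 without T98G), none past the threshold. Of the other values of single genes, 169 kept direction and side of the threshold, 23 lost and 5 gained a call. Depth limits the genes under 1 CPM in a line, and 3 lines limit the tests.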
